A study of Mus musculus with 12 samples.

Results

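The Zbtb family, also called the POK family, was followed here as 41 genes of the 24421 in the deposited table. Its members were all genes whose symbol is Zbtb followed by a number and at most 1 letter, plus Patz1. Bcl6 and Bcl6b belong to the same structural class but were kept apart, because Bcl6 is the gene deleted in the study. Proteins of this class join an N-terminal BTB (POZ) domain, which pairs subunits and recruits corepressors or the Cul3 ubiquitin ligase, to C-terminal zinc fingers that bind DNA. In the thymus several of them are known as regulators of lineage choice, such as Zbtb7b (ThPOK) for CD4 T cells, Zbtb16 (PLZF) for innate-like T cells and Patz1 (MAZR) for the Cd8 genes. Without Rag1 no T cell receptor is made, and thymocytes arrest while they carry CD25. Antibody against CD3 can replace the absent pre-TCR signal, after which cells pass through the immature single-positive (ISP) stage, with CD8 alone, to the double-positive (DP) stage, with CD4 as well.

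RNA was sequenced from thymocytes of C57BL/6 embryos at E16.5 (E17.5 in the treatment protocol), and all of them lacked Rag1 and carried loxP-flanked Bcl6 (Bcl6fl/fl). Controls were LckCre- and the conditional knockout, called KO here, was LckCre+, so that Cre came from an Lck promoter construct, which is active in T lineage cells. CD25 cells were sorted from unstimulated thymi, and ISP (CD8+CD4-) and DP (CD4+CD8+) cells from thymi cultured with anti-CD3 at 1 µg/ml for 2 days. Each population and genotype had 2 libraries, 12 in all. Nothing in the labels ties the libraries of a group to different embryos, so p-values measure the spread between these libraries, which may be technical.

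Recovered reads per library ran from 9657633 (DP KO 2) to 14227980 (ISP control 1), and 10241 to 10568 genes per library had at least 1 RPKM (reads scaled to gene length and library depth). Libraries were grouped by title. The library name in the description disagrees with the title, on population or genotype, in 6 of the 8 anti-CD3 libraries, and 4 of the 8 have the same population in both. Cd4 separated the titled populations, at 13.9 to 20.5 RPKM in the libraries titled ISP and 191 to 344 RPKM in those titled DP, and Il2ra, which encodes CD25, was at 538 to 603 RPKM in CD25 libraries against 14.5 to 44.7 RPKM in the others. The titled genotype has no such check in these values: Bcl6 summed over the whole gene averaged 71.2 ± 1.80 RPKM in DP control and 99.5 ± 16.6 RPKM in DP KO (SD, n = 2). In the tests described below, Bcl6 was called higher in KO than in control in ISP and in DP, and was not called in CD25. A value over the whole gene does not test the deletion.

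Most of the family was expressed at moderate or low level. Patz1 was the highest member on the RPKM scale in every population, with a mean of 49.4 RPKM over the 12 libraries. Zbtb25 followed at 28.0 and Zbtb1 at 27.7 RPKM. 11 members averaged at least 10 RPKM, 20 averaged between 1 and 10 RPKM, and 10 averaged under 1 RPKM. The 10 low members were Zbtb7b, Zbtb7c, Zbtb8b, Zbtb10, Zbtb12, Zbtb16, Zbtb32, Zbtb39, Zbtb42 and Zbtb46. 26 members had at least 1 RPKM in every library, and 4 (Zbtb7c, Zbtb8b, Zbtb10 and Zbtb46) were listed at 0 in at least 1 library. The filter for testing, at least 1 RPKM in at least 2 libraries, was passed by the same 31 members that averaged at least 1 RPKM. The other 10 were described by their reads and not tested.

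**Figure D1:**
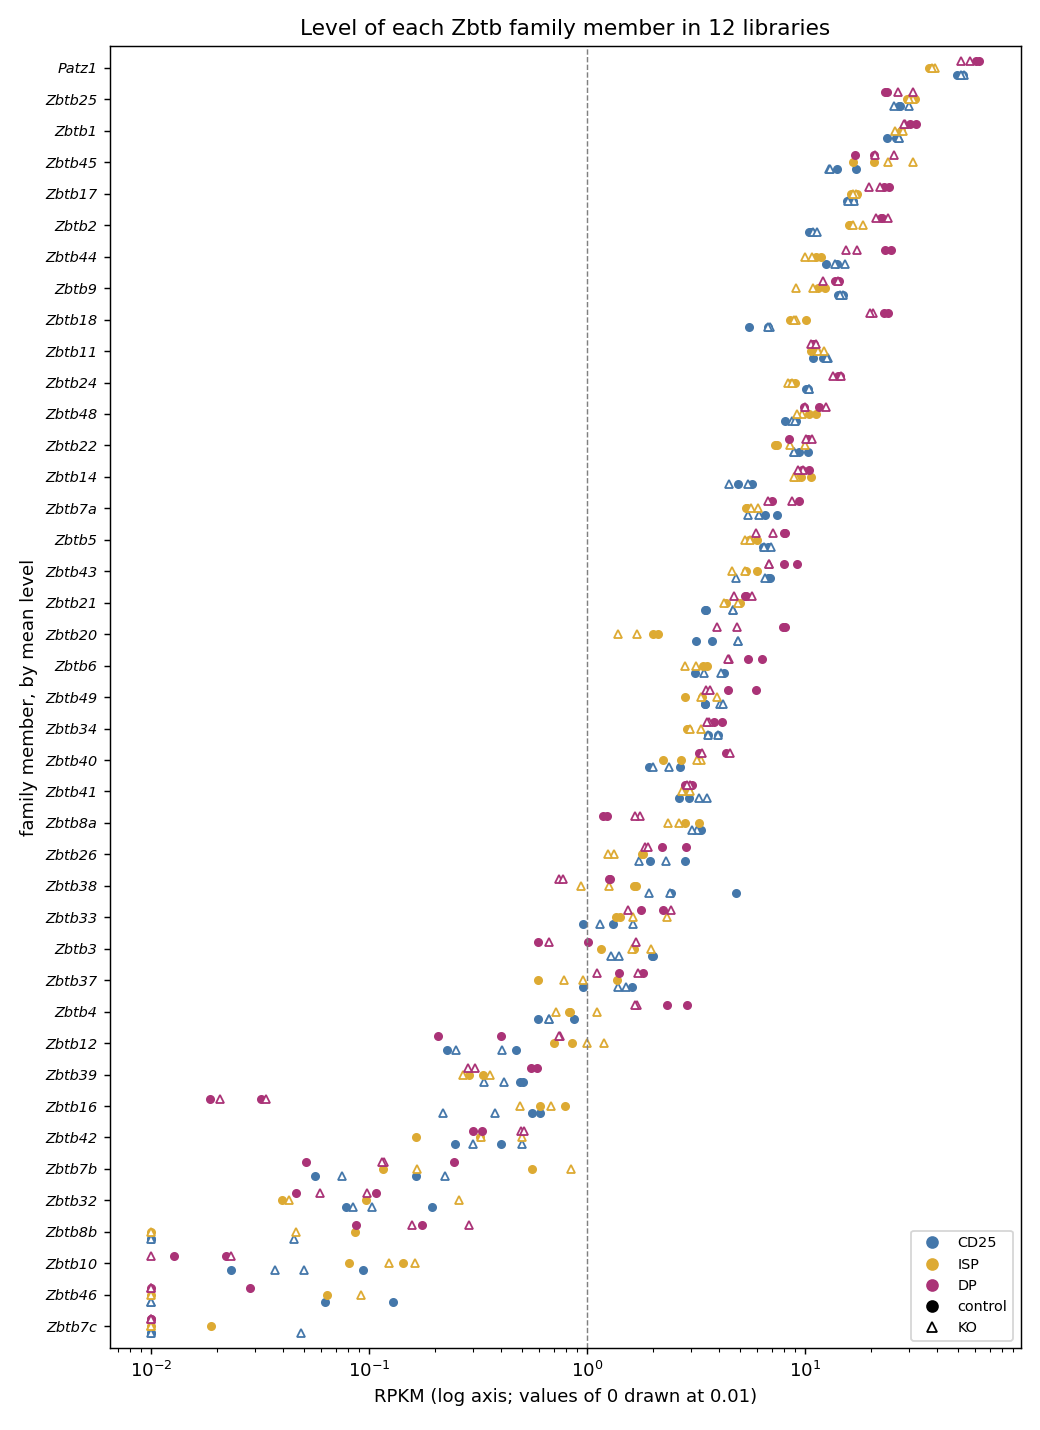
Level of each of the 41 members in the 12 libraries (RPKM, log axis, values of 0 drawn at 0.01), ordered by mean level; filled circles are control, open triangles KO, and colours give the population. Patz1 lies at 36.9 to 62.7 RPKM, and the dashed line at 1 RPKM separates the 10 members with the lowest means.

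The summed level of the 41 genes was similar in CD25 and ISP libraries and higher in DP libraries. The sum ran from 283.3 to 288.6 RPKM in CD25, from 275.1 to 288.4 RPKM in ISP, and from 338.7 to 377.0 RPKM in DP. Within DP it was 371.1 ± 8.37 RPKM in control and 345.7 ± 9.90 RPKM in KO (SD, n = 2). All 4 DP libraries lay above every other library. Patz1 alone made up 18.1% of the sum in CD25, 13.4% in ISP and 16.2% in DP.

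Zbtb18, Zbtb20 and Zbtb44 had the largest differences on the log2(RPKM + 1) scale among the members tested in the step from ISP to DP, and 1 promoter window of each is shown. The windows hold 250 bases before and 50 bases after an annotated start (RefSeq, GRCm38.p6) and are written 5′ to 3′ on the gene's strand, with each CG dinucleotide in capitals. The Zbtb18 window is chr1:177442101-177442400, the one of 5 listed for that gene that lies at the start GENCODE M21 gives for it, and the Zbtb44 window chr9:31030394-31030693. The Zbtb20 window, chr16:43247034-43247333, lies inside the gene, which GENCODE M21 places at 42875881 to 43642602 of chromosome 16, and is the only one listed for it, so other starts were not examined.
Zbtb18: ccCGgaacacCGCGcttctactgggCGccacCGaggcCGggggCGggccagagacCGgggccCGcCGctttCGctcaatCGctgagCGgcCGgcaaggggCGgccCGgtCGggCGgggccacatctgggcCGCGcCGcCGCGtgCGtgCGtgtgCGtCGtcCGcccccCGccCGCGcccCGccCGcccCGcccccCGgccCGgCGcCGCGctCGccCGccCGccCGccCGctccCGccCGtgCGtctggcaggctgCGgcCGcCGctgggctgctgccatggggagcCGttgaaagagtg
Zbtb20: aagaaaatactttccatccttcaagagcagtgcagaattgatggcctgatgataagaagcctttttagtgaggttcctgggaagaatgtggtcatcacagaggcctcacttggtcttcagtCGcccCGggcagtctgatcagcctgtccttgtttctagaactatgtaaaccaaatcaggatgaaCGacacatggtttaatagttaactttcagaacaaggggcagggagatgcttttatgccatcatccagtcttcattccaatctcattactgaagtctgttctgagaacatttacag
Zbtb44: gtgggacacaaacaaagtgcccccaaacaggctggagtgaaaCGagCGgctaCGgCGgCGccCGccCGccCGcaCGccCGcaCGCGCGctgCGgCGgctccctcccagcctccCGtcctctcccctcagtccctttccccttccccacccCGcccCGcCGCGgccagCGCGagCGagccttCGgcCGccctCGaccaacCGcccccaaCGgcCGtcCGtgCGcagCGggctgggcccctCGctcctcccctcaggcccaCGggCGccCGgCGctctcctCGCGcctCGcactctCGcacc

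The Zbtb18 window held 51 CG dinucleotides (81.7% G or C), the Zbtb44 window 41 (76.3%) and the Zbtb20 window 3 (43.3%). The other 4 windows listed for Zbtb18 held 1 to 3 CG dinucleotides (38.3% to 43.7% G or C), so the base composition of that gene's windows depends on the start. Windows were listed for 36 of the 41 members, 50 in all, and their median was 25 CG dinucleotides and 64.3% G or C. The median over all 32851 windows of the table, non-coding genes included, was 7 CG dinucleotides and 52.7% G or C. Among members with a window, Zbtb20 and Zbtb46 were those with fewer than 5 in every window listed. The core of the published BCL6 motif, TTCCTNGAA, was searched on both strands and occurred in 0 of the 50 member windows and in 1.59% of all windows. The wider palindrome TTCNNNGAA, which contains every match of the first, occurred in 8.30% of all windows and in 1 member window, that of Zbtb20, as TTCTGAGAA at position 283 of the window. A match describes letters in this window and no binding was measured.

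From CD25 to ISP more members fell than rose. Of the 31 tested, 5 were higher in ISP (Zbtb2, Zbtb14, Zbtb18, Zbtb25 and Zbtb45) and 9 were lower (Patz1, Zbtb5, Zbtb9, Zbtb20, Zbtb24, Zbtb26, Zbtb34, Zbtb38 and Zbtb44), at an adjusted p under 0.05 in limma over all 11303 genes. Of all genes tested, 33.1% were higher and 30.9% lower, so the share of members that fell, 29.0%, was near the background and the share that rose, 16.1%, was below it. The median difference (log2 of RPKM + 1) was -0.14 over the members and 0.01 over all genes. With limma-voom on recovered reads, a setting chosen after seeing the data, 4 members were higher and 15 lower, which is 12.9% and 48.4% of those tested, where 28.6% of all genes were higher and 37.3% lower. Because these are bulk samples that also differ by treatment, a change in RNA per cell and a change in the mix of cells cannot be told apart. Of 5 sex-linked genes, 4 on the Y chromosome (Eif2s3y, Uty, Ddx3y and Kdm5d) were lower in ISP and in DP than in CD25. The sexes of the embryos were thus not balanced between CD25 and the other populations. All 5 genes, Xist included, summed to 52.6 to 83.0 RPKM in CD25 control and 45.3 to 83.4 RPKM in CD25 KO. In ISP they summed to 43.3 to 93.5 RPKM in control and 21.1 to 21.5 RPKM in KO. In DP they summed to 68.5 to 174 RPKM in control and 25.5 to 26.0 RPKM in KO. The calls of Zbtb5, Zbtb25, Zbtb26 and Zbtb34 were lost when 1 or another single library was left out, with adjusted p reaching 0.207 for Zbtb25.

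From ISP to DP the family mostly rose. 20 members were higher in DP, 3 were lower (Zbtb3, Zbtb8a and Zbtb25) and 8 were not called, while 35.6% of all genes were higher and 35.0% lower. The share of members that were higher, 64.5%, is thus above that of all genes, and the share that were lower, 9.68%, below it. Of the 20, Zbtb4 passed the filter for testing only through its DP libraries. Members under the filter that were lower in DP, such as Zbtb16 and Zbtb10, are not in these counts. The median difference was 0.29 over the members and 0.01 over all genes (log2 of RPKM + 1). At this step too, a change in RNA per cell and a change in the mix of cells cannot be told apart. Summed natural killer and gamma delta markers, given below, were lower in DP than in ISP, and their part in these differences was not tested. Limma-voom gave 21 higher and 3 lower, which is 67.7% and 9.68% of those tested, where 37.2% of all genes were higher and 34.1% lower. In the 4 anti-CD3 libraries whose title and library name give the same population, fitted with the CD25 libraries, 15 members were higher and 1 lower. The share of all genes called in that smaller fit was not counted, so nothing about the family is read from it. The calls of Zbtb1, Zbtb22, Zbtb26, Zbtb37, Zbtb40, Zbtb49 and Zbtb3 were lost without 1 or another single library, with adjusted p reaching 0.171 for Zbtb37.

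End to end, from CD25 to DP, 18 members were higher, 3 were lower (Zbtb3, Zbtb8a and Zbtb38) and 10 were not called. The background was 37.3% higher and 38.4% lower, and the median difference was 0.26 over the members against -0.01 over all genes. This comparison uses the same CD25 and DP libraries as the 2 steps and is no independent evidence. The calls of Zbtb3, Zbtb7a, Zbtb33 and Zbtb43 were lost without 1 or another single library, with adjusted p reaching 0.123 for Zbtb7a. Taken by step, 8 members fell from CD25 to ISP and rose from ISP to DP: Patz1, Zbtb5, Zbtb9, Zbtb20, Zbtb24, Zbtb26, Zbtb34 and Zbtb44. Another 10 passed the test only as a rise from ISP to DP, which does not show that their first step was flat. Zbtb2 and Zbtb18 rose at both steps, and 5 members (Zbtb11, Zbtb21, Zbtb33, Zbtb41 and Zbtb48) were called at neither, of which Zbtb21, Zbtb33 and Zbtb48 were higher from CD25 to DP. How many of all genes took each of these courses was not counted, so the counts do not show a trait of the family. Both steps also use the same ISP libraries, so a low ISP value alone gives a fall and then a rise.

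**Figure D2:**
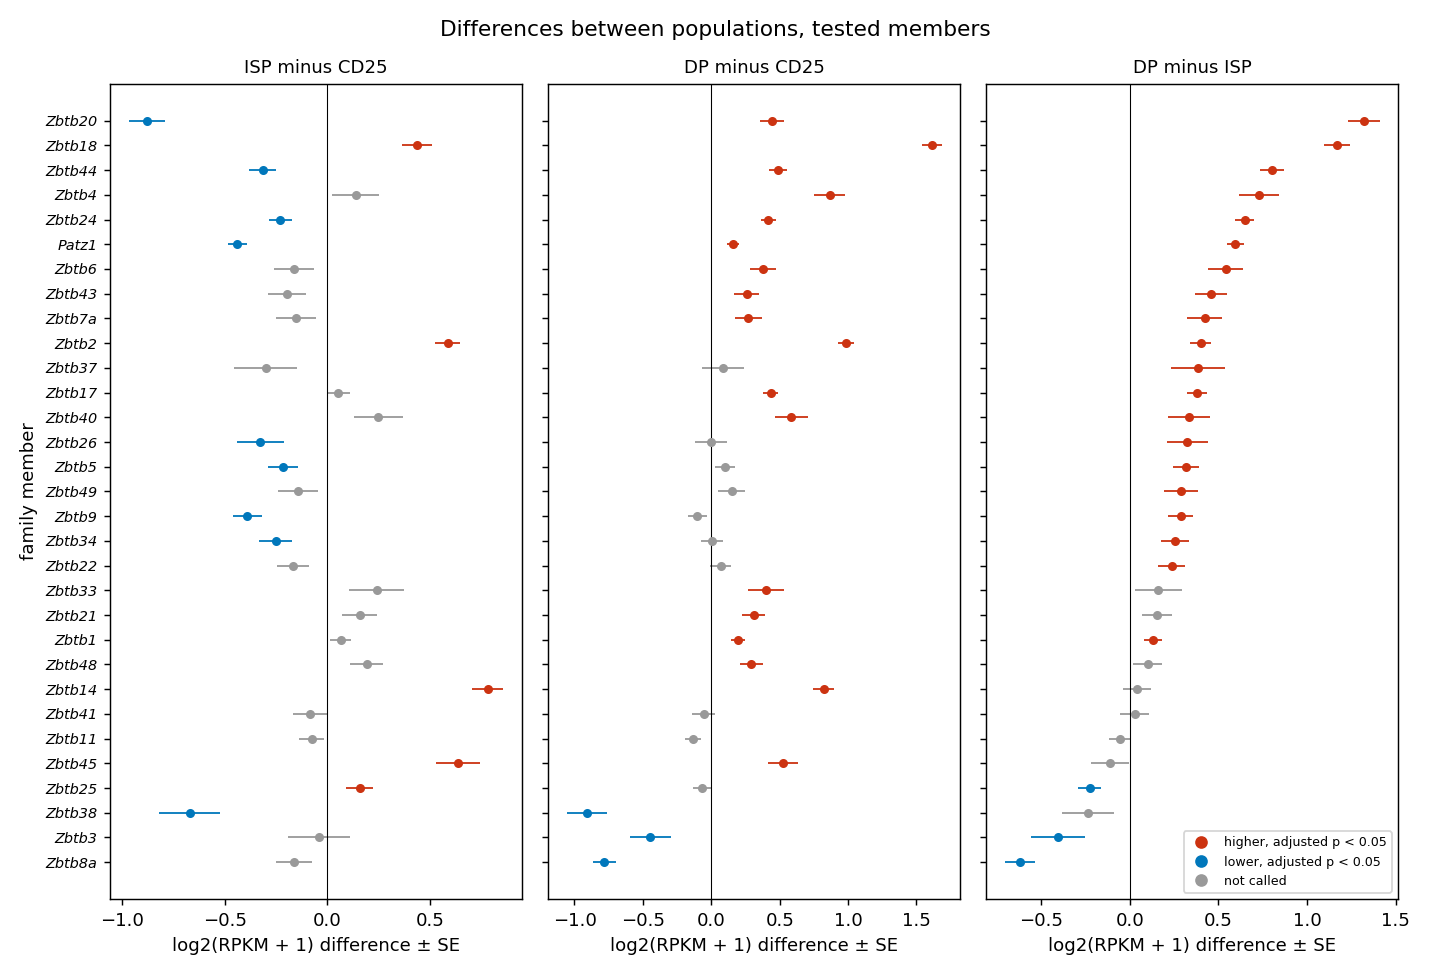
Difference in log2(RPKM + 1) with its standard error for the 31 tested members in ISP minus CD25, DP minus CD25 and DP minus ISP; red is higher and blue lower at an adjusted p under 0.05 in limma. In DP minus ISP 20 members are red and 3 blue, with Zbtb20 (1.32) and Zbtb18 (1.17) at the top.

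Zbtb18, a transcriptional repressor known from cortical neurons and muscle, rose the most from CD25 to DP among the members tested, on the log2(RPKM + 1) scale. CD25 control libraries had 6.74 and 5.52 RPKM and CD25 KO libraries 6.86 and 6.74 RPKM. ISP control libraries had 10.1 and 8.48 RPKM and ISP KO libraries 9.07 and 8.84 RPKM. DP control libraries had 22.8 and 24.0 RPKM and DP KO libraries 20.5 and 19.9 RPKM. The 3 populations did not overlap, with CD25 lowest and DP highest. Means were 6.47 ± 0.632, 9.12 ± 0.682 and 21.8 ± 1.95 RPKM (SD, n = 4, 2 of each genotype), so that DP was 3.37-fold above CD25. The log2 difference was 0.44 ± 0.07 (SE) from CD25 to ISP (adjusted p = 0.000206) and 1.17 ± 0.07 from ISP to DP (adjusted p = 2.93e-08). The gene lies at 177442351 to 177450764 of chromosome 1 (GRCm38), starts within the CG-rich window printed above, and shares exon positions with the antisense gene Gm26801; strand-aware counting is not stated.

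Zbtb20, best known as the repressor of alpha-fetoprotein in liver and for roles in hippocampus and plasma cells, had the largest rise from ISP to DP among the members tested, on the same scale. CD25 libraries had 3.16 and 3.72 RPKM in control and 4.91 and 4.94 RPKM in KO. ISP libraries had 2.11 and 2.01 RPKM in control and 1.69 and 1.39 RPKM in KO. DP libraries had 7.93 and 8.07 RPKM in control and 3.94 and 4.86 RPKM in KO. ISP was the lowest population in both genotypes, and the DP KO libraries lay above the CD25 control and below the CD25 KO libraries. Zbtb20 fell by 0.88 ± 0.09 (log2, SE) from CD25 to ISP (adjusted p = 3.35e-06) and rose by 1.32 ± 0.09 from ISP to DP (adjusted p = 5.92e-08), 3.44-fold in mean RPKM. The rise of 0.44 ± 0.09 from CD25 to DP (adjusted p = 0.000637) is a mean over genotypes that differed, and its libraries overlapped. Exons of Zbtb20 share positions with the antisense gene Gm9968 and with Mir568.

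Zbtb44 followed the same course at a higher level. CD25 libraries had 14.0 and 12.5 RPKM in control and 15.3 and 13.7 RPKM in KO. ISP libraries had 11.2 and 11.8 RPKM in control and 9.97 and 10.8 RPKM in KO. DP libraries had 23.2 and 24.7 RPKM in control and 17.3 and 15.4 RPKM in KO. The populations did not overlap, ISP being lowest and DP highest. The log2 difference was -0.31 ± 0.07 (SE) from CD25 to ISP (adjusted p = 0.00123) and 0.80 ± 0.07 from ISP to DP (adjusted p = 3.62e-07). The gene lies at 31030644 to 31075885 of chromosome 9.

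Patz1, a repressor of the Cd8 genes and of Zbtb7b in thymocytes, fell and then rose. CD25 libraries had 49.7 and 53.1 RPKM in control and 53.3 and 51.6 RPKM in KO. ISP libraries had 37.8 and 36.9 RPKM in control and 39.3 and 38.2 RPKM in KO. DP libraries had 62.7 and 60.7 RPKM in control and 57.1 and 52.0 RPKM in KO. The 4 ISP libraries were the lowest of the 12, and DP KO 2 lay within the CD25 range. The log2 difference was -0.44 ± 0.05 (SE) from CD25 to ISP (adjusted p = 4.27e-06) and 0.60 ± 0.05 from ISP to DP (adjusted p = 1.86e-07). Cd8a, one of the Cd8 genes, averaged 1.71 ± 0.358 RPKM in CD25, 258 ± 34.0 RPKM in ISP and 826 ± 46.8 RPKM in DP (SD, n = 4). A link between the levels of Patz1 and Cd8a was not tested. Exons of Patz1 share positions with Gm12592 and Gm11944.

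Zbtb24, mutated in the immunodeficiency, centromeric instability and facial anomalies (ICF) syndrome and known as an activator of Cdca7, took the same course. CD25 libraries had 10.1 to 10.5 RPKM, ISP libraries 8.34 to 8.94 RPKM and DP libraries 13.4 to 14.5 RPKM. No libraries overlapped between populations. Zbtb24 fell by 0.23 ± 0.06 (log2, SE) from CD25 to ISP (adjusted p = 0.00343) and rose by 0.65 ± 0.06 from ISP to DP (adjusted p = 5.81e-07). Its target Cdca7 had means of 300 ± 8.07 RPKM in CD25, 399 ± 18.9 RPKM in ISP and 377 ± 124 RPKM in DP (SD, n = 4). The DP mean pools genotypes that differed, as given below, and a link between Zbtb24 and Cdca7 was not tested.

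Zbtb17 (Miz-1), a DNA-binding partner of Myc that acts in IL-7 receptor signalling and at the pre-TCR checkpoint, rose at the second step. CD25 libraries had 15.6 to 16.7 RPKM, ISP libraries 16.2 to 17.2 RPKM and DP libraries 19.6 to 24.3 RPKM. DP lay above both other populations, which overlapped. The log2 difference from ISP to DP was 0.38 ± 0.06 (SE, adjusted p = 6.31e-05), and from CD25 to ISP it was 0.05 ± 0.06 (adjusted p = 0.427). Over the same populations Myc averaged 188 ± 11.4, 143 ± 11.2 and 29.2 ± 11.1 RPKM and Socs1, a gene that Zbtb17 represses, 60.0 ± 9.35, 77.9 ± 7.29 and 173 ± 9.19 RPKM (SD, n = 4). Exons of Zbtb17 share positions with the opposite-strand gene Spen.

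Zbtb7a (LRF), which opposes Notch signals in lymphoid progenitors, had 5.48 to 7.44 RPKM in CD25, 5.36 to 6.07 RPKM in ISP and 6.77 to 9.32 RPKM in DP. It rose by 0.42 ± 0.10 (log2, SE) from ISP to DP (adjusted p = 0.00217), without overlap. The difference of 0.27 ± 0.10 from CD25 to DP (adjusted p = 0.0252) was lost without CD25 control 1, CD25 KO 1, DP control 1 or DP KO 1, with adjusted p up to 0.123. Its CD25 and DP libraries overlapped.

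Zbtb1, needed for lymphoid development, and Zbtb25 start 664 bases apart on chromosome 12 and are read in opposite directions, and they moved in opposite directions from ISP to DP. Zbtb1 had 23.8 to 27.0 RPKM in CD25, 25.8 to 28.0 RPKM in ISP and 28.4 to 32.2 RPKM in DP. Its log2 difference from ISP to DP was 0.13 ± 0.05 (SE, adjusted p = 0.0324), a call lost without any single anti-CD3 library other than ISP KO 1 and DP control 2 (adjusted p up to 0.125). From CD25 to DP it was 0.20 ± 0.05 (adjusted p = 0.00322). These are small changes in a gene whose libraries barely separate.

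Zbtb25 had 25.4 to 29.9 RPKM in CD25, 29.2 to 32.0 RPKM in ISP and 23.3 to 31.1 RPKM in DP. Its log2 difference from ISP to DP was -0.23 ± 0.06 (SE, adjusted p = 0.00796), with the 2 DP control libraries below all others and DP KO 2 within the ISP range. The rise of 0.16 ± 0.06 from CD25 to ISP (adjusted p = 0.0491) was called in the fit of all libraries, but kept its call only without CD25 KO 2, ISP control 2, DP KO 1 or DP KO 2 among the fits that leave out 1 library. Neither change reached the size of those of Zbtb18 or Zbtb20.

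Among the other members, Zbtb2 rose by 0.99 ± 0.06 (log2, SE) from CD25 to DP (adjusted p = 1.34e-08), from 10.4 to 11.3 RPKM in CD25 through 15.9 to 18.4 RPKM in ISP to 21.0 to 23.9 RPKM in DP, in 3 ranges that did not overlap. Zbtb14 rose at the first step, from 4.45 to 5.69 RPKM in CD25 to 8.83 to 10.6 RPKM in ISP, and had 9.26 to 10.4 RPKM in DP. The methyl-CpG-binding members did not share a course. Zbtb4 rose by 0.73 ± 0.11 from ISP to DP (adjusted p = 9.42e-05), from 0.721 to 1.11 RPKM to 1.65 to 2.87 RPKM, 2.44-fold in mean RPKM. It had 0.594 to 0.872 RPKM in CD25 and passed the filter for testing only through its DP libraries. Its calls toward higher DP values are thus no independent support for a rise. Zbtb38 fell by 0.67 ± 0.15 from CD25 to ISP (adjusted p = 0.00173), from 1.93 to 4.78 RPKM to 0.931 to 1.66 RPKM, and CD25 control 1 was far above the other CD25 libraries. Zbtb33 (Kaiso), an X-linked member, had 0.957 to 2.41 RPKM over all libraries and was called at neither step, though from CD25 to DP it was higher by 0.40 (adjusted p = 0.0160). The sexes were not balanced in that comparison, and the part of this in the Zbtb33 difference was not tested. Zbtb8a fell by 0.62 ± 0.09 from ISP to DP (adjusted p = 3.82e-05), from 2.34 to 3.27 RPKM to 1.18 to 1.74 RPKM. Zbtb6 and Zbtb26 overlap on the same strand of chromosome 2, so the split of their reads is uncertain, and both rose from ISP to DP.

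**Figure D3:**
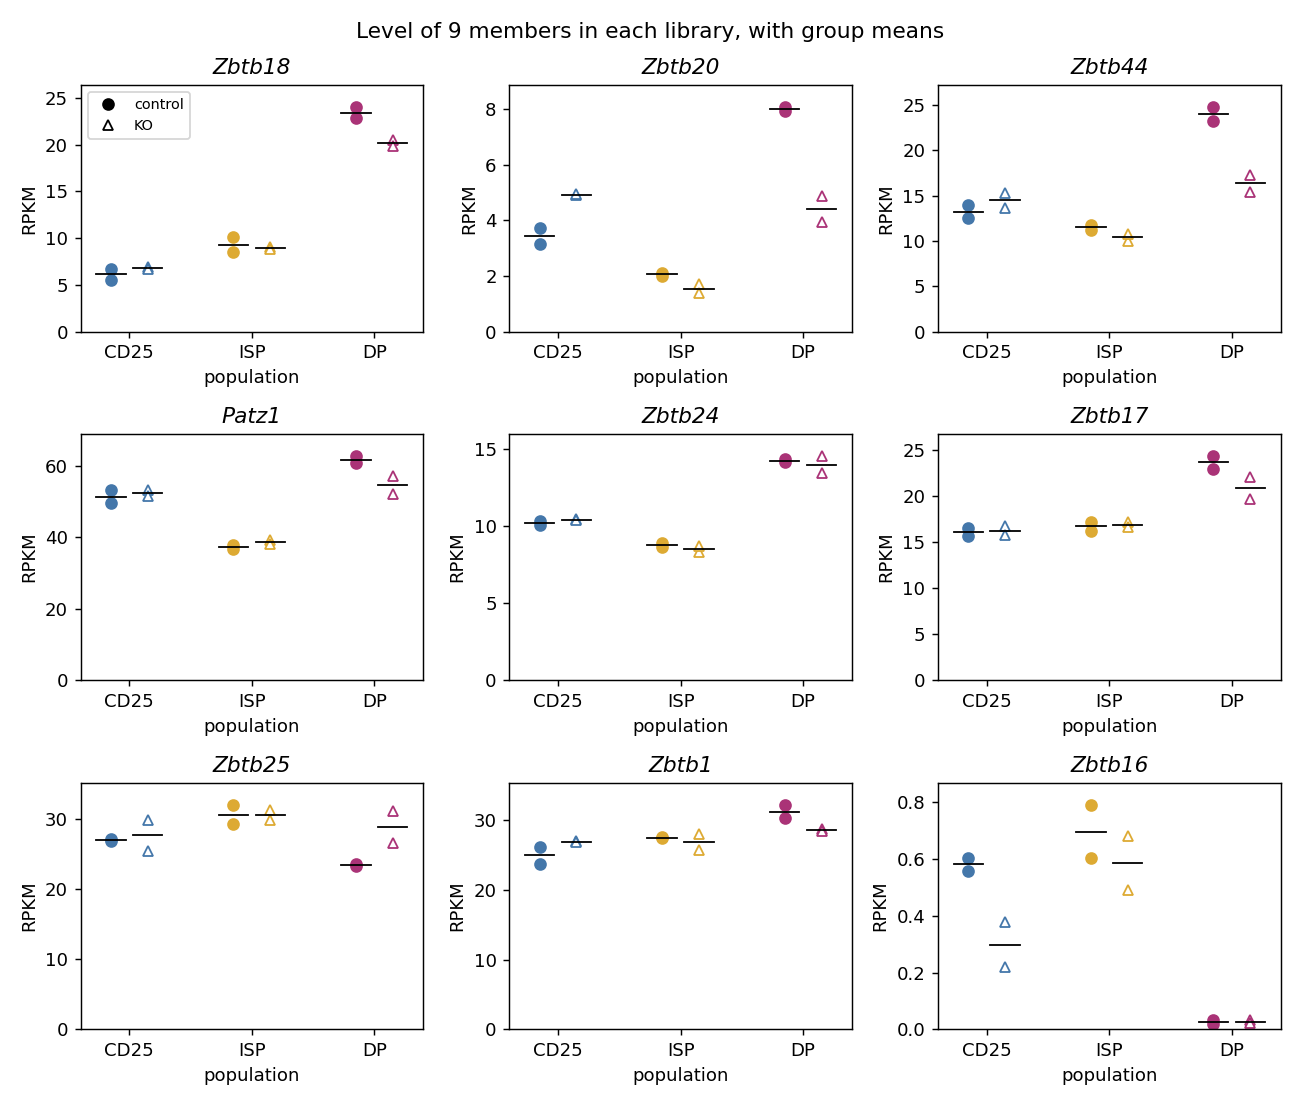
RPKM of 9 members in each library, by population and genotype (filled circles control, open triangles KO, bars the mean of the 2 libraries of a group), each panel with its own axis from 0. Zbtb20 and Zbtb44 are lowest in ISP and differ by genotype in DP, and Zbtb16 is at 0.0186 to 0.0337 RPKM in DP.

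The lineage regulators of mature and innate-like T cells were low, with Zbtb16 and Zbtb7b under 1 RPKM in every library. Zbtb16 (PLZF) had 0.558 and 0.605 RPKM in CD25 control and 0.377 and 0.218 RPKM in CD25 KO. It had 0.791 and 0.604 RPKM in ISP control, 0.492 and 0.681 RPKM in ISP KO, and 0.0186 to 0.0337 RPKM in the 4 DP libraries. These values stood for 113 reads in CD25, 172 in ISP and 6 in DP. Relative to library depth, ISP was thus 23.8-fold above DP (exact 95% interval 10.7 to 65.7) and CD25 16.9-fold above DP (7.54 to 47.1). These intervals, and those below, cover counting error only and come from pooled libraries, not from the spread between them.

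Markers of other cells that can express Zbtb16 were also lower in DP than in ISP. Of an 8-gene natural killer and innate lymphoid list, Eomes was not tested. The other 7 (Ncr1, Klrd1, Nkg7, Tyrobp, Gzma, Klrb1c and Il2rb) were all lower in DP than in ISP, where 35.0% of all genes were. From CD25 to ISP 6 of the 7 were higher and 1 lower (Nkg7), where 33.1% of all genes were higher and 30.9% lower. The list summed to 593 to 782 RPKM in CD25, 1044 to 1266 RPKM in ISP and 113 to 217 RPKM in DP. Within CD25 it summed to 593 to 624 RPKM in control and 692 to 782 RPKM in KO. Zbtb16 went the other way there, both KO libraries being below both control libraries. Of 6 gamma delta T cell markers 3 were in the table, and their sum was 25.5 to 37.3 RPKM in CD25, 38.8 to 53.4 RPKM in ISP and 1.32 to 2.20 RPKM in DP. Of these, Cd163l1 and Sox13 were tested, and both were lower in DP than in ISP. From CD25 to ISP Cd163l1 was higher and Sox13 lower. The part of such cells in the Zbtb16 values was not tested.

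Zbtb7b (ThPOK) had 24 reads in CD25, 79 in ISP and 22 in DP. In ISP the values were 0.115 and 0.558 RPKM in control and 0.165 and 0.841 RPKM in KO, so replicate 2 of each genotype held most of the reads and the spread within ISP was as large as its distance from the other populations. Zbtb32, induced in activated lymphocytes, had 10 reads in CD25, 10 in ISP and 6 in DP, and no difference was detectable at this depth. Zbtb10 had 20 reads in CD25, 50 in ISP and 5 in DP, which put ISP 8.29-fold above DP (3.33 to 26.7). Zbtb8b went the other way, with 2 reads in CD25, 6 in ISP and 25 in DP, which put DP 5.02-fold above ISP (lower 95% limit 2.01), and its neighbour Zbtb8a fell at that step. Zbtb46, a factor of classical dendritic cells, had 8, 7 and 1 reads, and Zbtb7c 3, 1 and 0. The remaining low members, Zbtb12, Zbtb39 and Zbtb42, had between 31 and 131 reads per population.

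Few members were called between KO and control. In CD25, 0 of 30 tested members were called in either direction (limma, background 0.00940% higher and 0.00940% lower), 2 had an unadjusted p under 0.05 (Zbtb20, with a log2 difference of 0.42, and Zbtb21, 0.33, where 9.14% of all genes did), and limma-voom called 0. In ISP, 0 of 31 were called (background 0.257% higher and 0.0973% lower), 3 had an unadjusted p under 0.05 (Zbtb45, 0.54; Zbtb22, 0.29; Zbtb9, -0.23, where 13.2% of all genes did), and limma-voom called 0. Zbtb45 had 20.62 and 16.55 RPKM in ISP control and 24.1 and 31.1 RPKM in ISP KO, an adjusted p of 0.136. With 2 libraries a side, a change of this size need not reach the threshold. The Y-linked genes Eif2s3y and Ddx3y were lower in ISP KO than in ISP control, where 0.0973% of all genes were lower. The sexes were thus not balanced between the ISP genotypes, and the part of this in the ISP values was not tested.

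In DP, 1 member was higher in KO (Zbtb25) and 3 were lower (Zbtb20, Zbtb44 and Zbtb49). Of all genes, 14.1% were higher and 7.78% lower, so the share of members called higher, 3.23%, was below that of all genes and the share called lower, 9.68%, was near it. The median difference was -0.09 over the members and 0.00089 over all genes. 10 members had an unadjusted p under 0.05, of which 8 were lower, where 35.4% of all genes did. Limma-voom called 0 higher and 8 lower, which is 25.8% of the members tested where 11.2% of all genes were lower. This weighting also shifted the split over all genes, from 64.5% to 49.0% higher among those called.

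Zbtb20 averaged 8.00 ± 0.0944 RPKM in DP control and 4.40 ± 0.655 RPKM in DP KO (SD, n = 2), from the libraries given above, without overlap. It fell by 0.74 ± 0.13 (log2, SE, adjusted p = 0.00226) in KO, a 1.82-fold lower mean. Zbtb44 averaged 24.0 ± 1.08 RPKM in DP control and 16.3 ± 1.35 RPKM in DP KO and fell by 0.53 ± 0.09 (adjusted p = 0.00278), a 1.47-fold lower mean. Each kept its call without any single library (adjusted p up to 0.0202 for Zbtb20 and 0.0349 for Zbtb44). Under a grouping by library name both were higher in KO, by 1.20 and 0.86. The libraries named DP KO are titled DP control 1 and DP KO 1, and those named DP control are titled ISP control 1 and ISP KO 1. That grouping thus sets titled DP against titled ISP libraries and does not test the titled genotypes. In both genes the DP KO libraries lay between the ISP libraries and the DP control libraries.

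The other DP calls were close to the threshold. Zbtb49 had 5.92 and 4.44 RPKM in control and 3.50 and 3.66 RPKM in KO, a log2 difference of -0.42 ± 0.14 (SE, adjusted p = 0.0454). Its call was kept only without ISP control 1, ISP control 2 or DP control 2 among the fits that leave out 1 library, and adjusted p reached 0.320 without DP control 1. Zbtb25 had 23.3 and 23.6 RPKM in control and 26.5 and 31.1 RPKM in KO, a difference of 0.28 ± 0.09 (adjusted p = 0.0475). Its call was kept only without CD25 KO 1, CD25 KO 2 or DP KO 1, and adjusted p reached 0.336 without DP KO 2.

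Other members that rose from ISP to DP were not called between the DP genotypes. Zbtb18 averaged 23.4 ± 0.817 RPKM in DP control and 20.2 ± 0.423 RPKM in DP KO (SD, n = 2; log2 difference -0.21 ± 0.10, adjusted p = 0.177). Patz1 averaged 61.7 ± 1.39 and 54.6 ± 3.61 RPKM (-0.18 ± 0.06, adjusted p = 0.0716). Zbtb4 averaged 2.59 ± 0.391 and 1.68 ± 0.0314 RPKM (-0.42 ± 0.16, adjusted p = 0.0812). For Zbtb24 the difference was -0.03 ± 0.08 (adjusted p = 0.849).

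**Figure D4:**
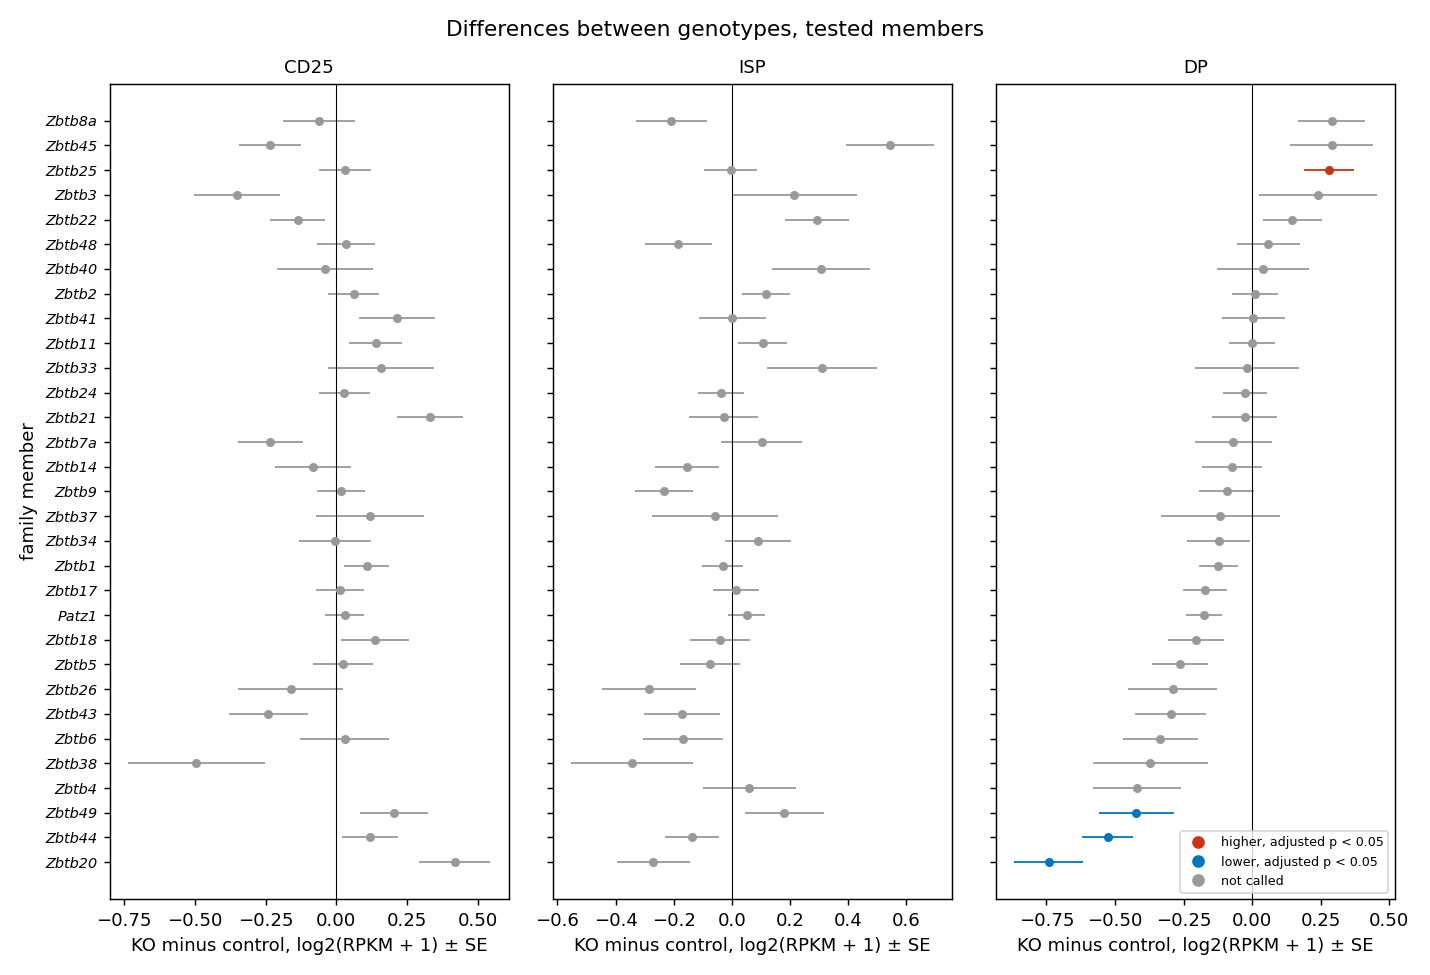
KO minus control in log2(RPKM + 1) with its standard error for the tested members in CD25, ISP and DP; red is higher and blue lower at an adjusted p under 0.05 in limma, grey not called. Only the DP panel holds calls, Zbtb25 (0.28) in red and Zbtb49, Zbtb44 and Zbtb20 (-0.42, -0.53 and -0.74) in blue.

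Whether the KO difference itself differed between DP and ISP was tested as an interaction. 0 of 31 members were called by limma (background 3.67% higher and 0.522% lower), and 6 had an unadjusted p under 0.05, where 21.6% of all genes did. Limma-voom called 1, lower, where 3.34% of all genes were higher and 1.56% lower. The smallest adjusted p was 0.0992, for Zbtb49 (-0.60 ± 0.19). For Zbtb44 the interaction was -0.39 ± 0.13 (adjusted p = 0.114) and for Zbtb20 -0.47 ± 0.18 (adjusted p = 0.151). The KO differences of these genes in DP are therefore not shown to differ from those in ISP, which had the same sign for Zbtb20 (-0.27 ± 0.13, adjusted p = 0.387) and Zbtb44 (-0.14 ± 0.09, adjusted p = 0.583). Between DP and CD25, a comparison added after seeing the data, the KO difference differed for 2 members, both lower (Zbtb20 and Zbtb44), where 8.39% of all genes were higher and 3.94% lower.

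A few markers of other cells were called between the DP genotypes. The 8 natural killer and innate lymphoid genes summed to 113 to 127 RPKM in DP control and 178 to 217 RPKM in DP KO. Of the 7 tested, 2 were called, both higher in KO (Tyrobp and Gzma), 5 were not, and the median difference over the 7 was -0.04. 10 dendritic and myeloid genes summed to 19.9 to 28.4 RPKM in DP control and 64.0 to 85.5 RPKM in DP KO, with Clec9a at 0 in both, and 2 of 6 tested were called, both higher in KO (Lyz2 and Csf1r). Cd4 averaged 341 ± 4.27 RPKM in DP control and 220 ± 41.7 RPKM in DP KO (SD, n = 2, adjusted p = 0.025). Ddx3y, a Y-linked gene, averaged 36.0 ± 28.7 RPKM in DP control and 0.0453 ± 0.0641 RPKM in DP KO, so the sexes of the embryos were not balanced. The part of these differences in the values of Zbtb20, Zbtb44, Zbtb49 and Zbtb25 was not tested.

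Genes of the same structural class with other names were read out as a short list. Of 7 listed (Hic1, Hic2, Mynn, Gzf1, Zfp131, Bcl6 and Bcl6b), 5 were tested. From ISP to DP 4 were higher (Bcl6, Zfp131, Gzf1 and Mynn) and 0 lower, with a median difference of 0.48. Of all genes, 35.6% were higher and 35.0% lower at that step. From CD25 to ISP 2 of the 5 were higher and 1 lower, where 33.1% of all genes were higher and 30.9% lower. A list of 5 genes that includes Bcl6 itself does not describe the class. Bcl6 averaged 1.74 ± 0.227 RPKM in CD25, 16.9 ± 6.46 RPKM in ISP and 85.4 ± 19.0 RPKM in DP (SD, n = 4), a larger rise than that of any Zbtb member tested. The ISP and DP means pool genotypes that differed, with Bcl6 called higher in KO in both. Zfp131 averaged 24.6 ± 1.26, 29.3 ± 1.16 and 41.3 ± 1.24 RPKM in the same order. Gzf1 fell and then rose, with means of 12.1 ± 0.597, 8.76 ± 0.515 and 13.9 ± 0.893 RPKM.

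The partners that BTB zinc finger proteins recruit changed in both directions. Of 21 corepressor and ubiquitin ligase genes, all tested, 10 were higher and 7 lower in DP than in ISP, with a median of 0.09, where 35.6% of all genes were higher and 35.0% lower. Hdac7 averaged 37.6 ± 2.28 RPKM in CD25, 58.7 ± 5.01 RPKM in ISP and 114 ± 14.2 RPKM in DP, while Hdac4 averaged 123 ± 22.1, 26.4 ± 3.53 and 18.3 ± 5.76 RPKM (SD, n = 4). Ncor1, a core corepressor subunit, averaged 36.9 ± 3.93 RPKM in ISP and 56.4 ± 7.18 RPKM in DP. Between DP genotypes 2 of the 21 were higher in KO (Hdac4 and Rbx1) and 2 lower (Ncor1 and Hdac7), where 14.1% of all genes were higher and 7.78% lower, and in CD25 and ISP 0 were called.

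T cell genes tied to family members were mostly called at both steps. Of 20, 11 were higher and 8 lower in ISP than in CD25 (33.1% and 30.9% of all genes), and 8 were higher and 12 lower in DP than in ISP (35.6% and 35.0% of all genes). In DP, 6 were higher in KO (Myc, Cdca7, Hells, Hes1, Runx1 and Cdkn1a) and 2 lower (Cd4 and Tox), where 14.1% and 7.78% of all genes were. Myc averaged 19.8 ± 1.48 RPKM in DP control and 38.5 ± 4.32 RPKM in DP KO, and Cdca7 273 ± 6.26 and 480 ± 58.6 RPKM (SD, n = 2). Zbtb24 was not called between DP genotypes, and a link between it and Cdca7 was not tested.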

How the data were processed

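RNA-seq of 12 libraries was analysed as a single deposited table, in which the authors give each gene as RPKM. BWA and GRCm38 are named in the submitters' processing notes; the counter, annotation and filters were not given in sources used here. All 169595 values above 0 (100%) were whole multiples of a per-library, per-gene step within 0.02 reads, which gave the reads quoted here.

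Groups followed the titles. Values were tested as log2(RPKM + 1) in limma 3.58.1 (R 4.3.3), letting the variance follow the mean level, for genes reaching 1 RPKM in 2 or more fitted libraries, with Benjamini-Hochberg adjustment over all genes tested. Low genes change more than such a difference shows, and folds are ratios of mean RPKM. For CD25 genotypes the 4 CD25 libraries were fitted (10636 genes), with 2 residual degrees of freedom. All other comparisons came from 1 fit of the 12 libraries in 6 groups (11303 genes), with 6. Members and lists were chosen with earlier results of these data known. Described per library are members called in a genotype comparison or the interaction, those called with a log2 difference of at least 1 between populations, and members with a textbook role in T cells; Zbtb2, Zbtb4, Zbtb8a, Zbtb14, Zbtb33, Zbtb38 and Zbtb45 were added as examples after their values were seen. List genes are given as counts with a few examples, of which Socs1, Cd8a, Cdca7 and Ncor1 were chosen after their values were seen. The summed B lineage, erythroid, mast cell and thymic epithelium markers are in the closing section. Alternatives were other pseudocounts, filters and trends, a replicate block, each library left out, grouping by library name, and limma-voom on recovered reads. Promoter windows are from RefSeq (GRCm38.p6) and gene positions from GENCODE M21, matched by symbol. Scripts were tested on simulated data with known changes. Python 3.11.15 with matplotlib 3.10.9, scipy 1.17.1, numpy 2.4.6 and pandas 2.3.3 was used for tables, read intervals and plots.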

Additional observations from a re-analysis of the deposited data

Results flagged for a closer look

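The KO difference of 2 members differed between DP and CD25 cells in an interaction test that was added after seeing the data (limma over 11303 genes, all 12 libraries). Of 5 sex-linked genes, 4 (Eif2s3y, Ddx3y, Uty and Kdm5d) were also lower in this interaction, where 3.94% of all genes were. The sexes were thus not balanced over these groups, and the part of this in the values below was not tested. For Zbtb20 the difference was 0.42 ± 0.13 (log2, SE) in CD25 and -0.74 ± 0.13 in DP, and the interaction was -1.16 ± 0.18 (adjusted p = 0.00412). For Zbtb44 it was 0.12 ± 0.10 in CD25 and -0.53 ± 0.09 in DP, and the interaction was -0.65 ± 0.13 (adjusted p = 0.0107). In both genes both KO libraries were below both control libraries in DP, and in CD25 the KO libraries of Zbtb20 were above its control libraries while those of Zbtb44 overlapped. Both calls held without any single library (adjusted p up to 0.0186 for Zbtb20 and 0.0495 for Zbtb44) and were lost under a grouping by library name (0.153 and 0.0666). In that grouping the DP genotype difference sets titled DP against titled ISP libraries. In the matching comparison of ISP with CD25, 0 members were called by limma and 3 had an unadjusted p under 0.05.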

How the results depend on the processing

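Counts of called members kept within 1.5 times under the other pseudocounts, the filter of 2 RPKM and the fit without a trend. Without the filter, 5 members were lower in DP than in ISP and 5 lower in DP than in CD25. With limma-voom on recovered reads, chosen after seeing the data, 15 members were lower in ISP than in CD25, 0 higher and 8 lower in DP KO, and 1 lower in the interaction of DP with ISP. The planned edgeR and DESeq2 runs were not run, because the deposited unit is RPKM. Leaving out 1 library gave 0 to 1 members higher and 2 to 4 lower in DP KO, and 15 to 20 higher in DP than in ISP. In the libraries with 1 population in title and library name, 1 member was lower in DP than in ISP.

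Grouping by library name changed most results: 4 members were lower in ISP than in CD25, 0 higher and 0 lower in DP than in ISP, 10 higher in DP than in CD25, 10 higher and 1 lower in ISP KO, and 11 higher in DP KO. Of 28 calls of named members, 11 changed sign: DP against CD25 for Patz1 (-0.11) and Zbtb20 (-0.22), DP against ISP for Zbtb20 (-0.0119), Zbtb44 (-0.0254) and Zbtb49 (-0.0237), ISP against CD25 for Zbtb44 (0.10) and Zbtb24 (0.0802), and DP KO for Zbtb20 (1.20), Zbtb44 (0.86), Zbtb49 (0.46) and Zbtb25 (-0.33). By name, the DP KO libraries are titled DP control 1 and DP KO 1, and the DP control libraries ISP control 1 and ISP KO 1. Those named ISP KO are titled DP control 2 and DP KO 2, and those named ISP control are titled ISP control 2 and ISP KO 2. Genotype differences by name thus set titled DP against titled ISP libraries. In population differences by name, the ISP and DP groups each hold both titled populations. Why names and titles disagree was not tested.

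Libraries with the same replicate number shared little deviation: over 15 pairs of groups, correlations of same-numbered deviations ran from -0.07 to 0.12. The highest was that of ISP control with DP control. These correlations cannot show whether libraries came from the same thymi. With the replicate number as a block, 0 members were higher and 2 lower in DP KO, and 25 of the 28 named calls were kept. Depth limits the 10 members under 1 RPKM, some with fewer than 10 reads per population.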

Other observations

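Markers of further cell types bear on the populations in which the family was measured. B lineage genes summed to 61.5 to 66.8 RPKM in CD25 libraries, with Cd79a, Pax5 and Ebf1 at 0, and erythroid genes to 10.1 to 13.2 RPKM. Mast cell genes summed to 23.4 to 28.9 RPKM in CD25 and to 24.6 to 30.5 RPKM in ISP KO, against 10.0 to 12.6 RPKM in ISP control and at most 1.75 RPKM in DP. In CD25 and ISP control 5 of the 6 mast cell genes were at 0 and the sum was Cpa3 alone. Thymic epithelium genes summed to 108 to 120 RPKM in CD25 and to 14.4 to 21.9 RPKM in ISP and DP, and this sum is mostly Epcam, which averaged 112 ± 5.39 RPKM in CD25 (SD, n = 4).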
